A study of Homo sapiens with 18 samples.

Results

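LX-2 cells labelled thrombin 24 h were compared with LX-2 cells labelled thrombin 4 h. LX-2 is an established line of human hepatic stellate cells, so every group here is the same immortalized cell line. The libraries of each time were taken by their labels alone, and the comparison holds 6 of the 18 RNA-seq libraries of the series, 3 at each time. All groups first spent 1 h without serum. The thrombin groups then received 1 U/mL thrombin for 4, 24 or 48 h, and the control groups stayed in serum-free medium for the same times. The libraries of each group carry the numbers 12, 13 and 14, and 3 values given in a row below follow that order. The labels do not say what the numbers stand for. The p-values therefore measure how far these libraries spread, and that spread may be technical.

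Stellate cells store retinoid in the resting liver and become contractile, matrix-producing myofibroblasts after injury. Thrombin, the protease that forms fibrin, also cleaves protease-activated receptors on the cell surface, whose G proteins raise calcium and activate the small GTPase RhoA. RhoA drives actin filament assembly, which frees the coactivators MRTF-A and MRTF-B to bind serum response factor (SRF) and lets YAP and TAZ enter the nucleus, and both act on contractile and matrix genes.

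The 3 libraries of 4 h held 18695657 to 20955646 counts and those of 24 h held 15472064 to 18766685, and the scaling factors were 1.007 to 1.024 and 0.945 to 0.962. The libraries labelled thrombin 4 h differed from those labelled control 24 h in 11 of 15353 genes (0.0716%), by the same test that called 2322 genes (15.1%) between the 2 thrombin times. At an unadjusted p under 0.05 that count was 857, by DESeq2 it was 31, and when any 1 of those 6 libraries was left out it was 0 to 7. Thrombin 24 h and control 4 h differed in 513 genes (3.34%). Whether the labels of any groups were exchanged was not tested. The libraries are named as labelled, and every direction below rests on those labels. The stellate activation markers, which include the collagen I chains and fibronectin, summed to 9747 to 10070 CPM (counts scaled to a common library size) at 4 h and to 12900 to 13100 at 24 h. Hepatocyte markers summed to 59.05 to 72.3 and 61.95 to 73.64 CPM, with 3 of 18 high enough to test and APOA2, TTR, FGA, FGG and AHSG at 0 in all 6 libraries. Macrophage and leukocyte markers summed to 75.28 to 95.49 and 83.72 to 101.3 CPM, with MARCO, C1QA, C1QB, AIF1 and CD3E at 0. None of the tested markers of hepatocytes, macrophages or epithelium was called. Endothelial markers summed to 112.6 to 150.3 and 100.3 to 124.1 CPM, with LYVE1 and CLEC4G at 0.

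From 4 h to 24 h with thrombin, 26 of 28 SRF and MRTF targets and 6 of 12 chemokines rose, and 21 of 26 cholesterol genes and 9 of 22 fatty acid and triglyceride genes fell. A gene was called higher ("rose") or lower ("fell") at an edgeR quasi-likelihood adjusted p under 0.05. By that rule 1205 genes rose (7.85% of those tested) and 1117 fell (7.28%), and the median change of all tested genes was -9e-04 on the log2 scale. Each list count below is to be read beside these shares, and a count near them is no result about its list. Of the called genes, 220 rose (1.43% of all tested) and 78 fell (0.508%) at least 2-fold. In 2133 of the called genes (91.9%) the 3 libraries of one time all lay above those of the other, which held for 2165 (14.1%) of all tested genes in the higher direction and 2110 (13.7%) in the lower. The counts rest on single libraries: without 4 h library 13 they were 750 higher and 664 lower, without 4 h library 14 the lower count was 643, without 24 h library 12 it was 744, and without 24 h library 14 it was 634. Without 4 h library 12 the counts were larger, at 1432 higher and 1538 lower. In bulk libraries, a lower level in every cell and fewer cells with the transcript cannot be told apart.

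The largest rises with separated libraries and a mean of at least 1 CPM included NFATC2, NPPB, KRTAP2-4, KRTAP2-3, RTL3, RELN, TRPC4, CXCL8, LIF, KRTAP1-5 and GLIPR1. GLIPR1 measured 24.5, 19.99 and 19.8 CPM at 4 h and 125, 123 and 100 CPM at 24 h (log2 fold change 2.44 ± 0.16, with its standard error here and below, edgeR adjusted p = 4.03e-10). The 24 h libraries of GLIPR1 lay far above those of 4 h. The largest falls were in METTL7A, GUCY1A2, TRPV6, SLCO4C1, PPL, C3AR1, EPO, CST1, TM7SF2, ANKEF1, CREG2 and LRRC26. The call was lost for EPO without library 14 of either time (adjusted p = 0.0794 and 0.092) and for CST1 without 4 h library 13 or 24 h library 12 or 14 (0.0909, 0.0975 and 0.0732). METTL7A, a lipid droplet-associated methyltransferase, fell from 7.88, 7.97 and 9.68 CPM to 1.41, 2.65 and 1.98 CPM (log2 fold change -2.08 ± 0.24, edgeR adjusted p = 1.17e-06). The rises named here ran from a log2 fold change of 2.44 in GLIPR1 and KRTAP1-5 to 3.74 in NFATC2, and the 12 listed falls from -1.42 in CREG2 and LRRC26 to -2.08 in METTL7A.

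**Figure D1:**
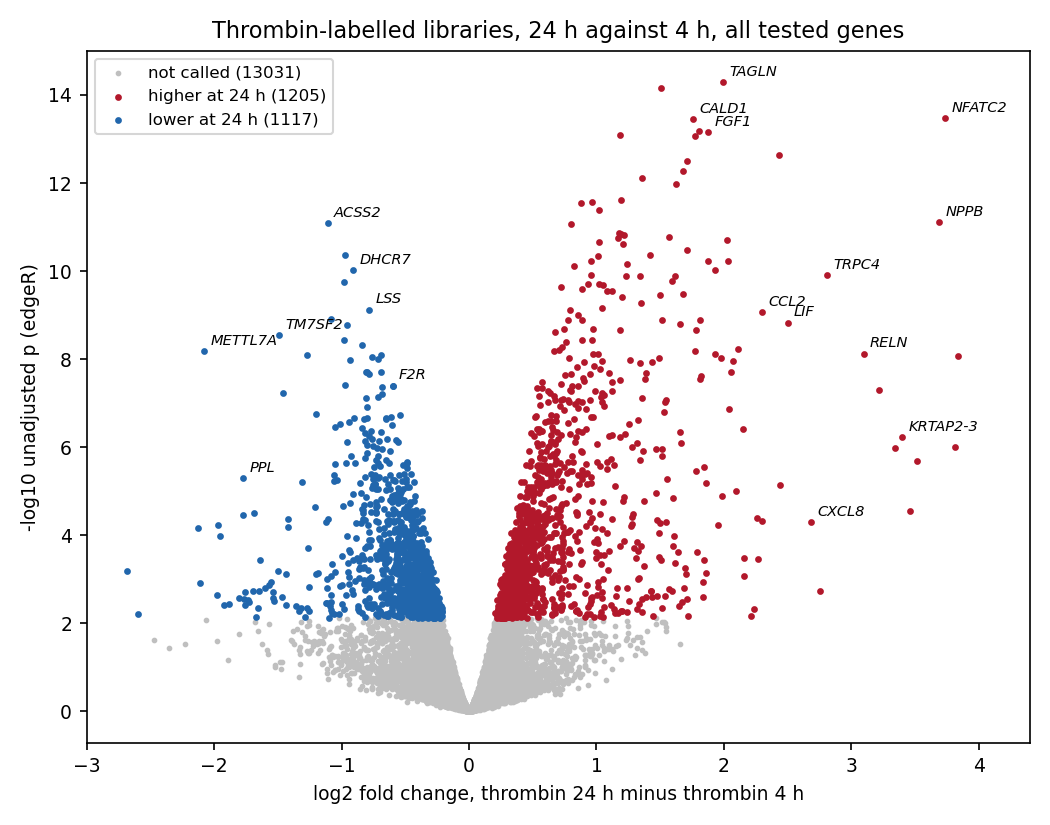
Change and test of every tested gene. Each point is 1 of 15353 genes, the horizontal axis is the log2 fold change from thrombin 4 h to thrombin 24 h, and the vertical axis is -log10 of the unadjusted edgeR p. Red genes (1205) were called higher at 24 h and blue genes (1117) lower. The rises named above extend to a log2 fold change of 3.74 and the falls to -2.08, and TAGLN, CALD1 and NFATC2 are among the 5 rises with the smallest p.

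Of 28 tested SRF and MRTF targets in the actin cytoskeleton, 26 rose and none fell, with a median log2 fold change of 0.65, against 7.85% of all tested genes that rose. The list held actins, tropomyosins, and the proteins that join filaments to each other and to the membrane. TAGLN (chr11:117199294-117207465, GRCh38.p14) encodes the actin-bundling protein transgelin and had the smallest p of all genes. It measured 36.9, 36.4 and 35.1 CPM at 4 h and 144, 139 and 149 CPM at 24 h (log2 fold change 2.00 ± 0.12, edgeR adjusted p = 5.28e-11). CALD1 (chr7:134711499-134970729), caldesmon, which binds actin and myosin, measured 240, 202 and 186 CPM and then 790, 676 and 658 CPM (log2 fold change 1.76 ± 0.12, edgeR adjusted p = 1.34e-10). In both genes the 24 h libraries stood well apart from the 4 h libraries and the spread within a time was small beside the gap.

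TPM1, a tropomyosin that lies along the filament, rose with a log2 fold change of 0.96 ± 0.08, FHL2, a LIM-domain cofactor, with 0.88 ± 0.07, and ACTG1, cytoplasmic gamma-actin, with 0.80 ± 0.07. ACTG1 levels ran from 4595, 4800 and 4931 CPM to 7933, 8687 and 8340 CPM, with no overlap. Reads of ACTG1 and ACTB could be split between these near-identical genes, so the level of each is uncertain. ACTA2, smooth muscle alpha-actin and the usual marker of an activated stellate cell, was low but rose from 10.2, 7.62 and 10.2 CPM to 18.0, 15.7 and 19.1 CPM (log2 fold change 0.91 ± 0.14, edgeR adjusted p = 2.91e-05). SRF itself was not called: it measured 95.3, 102 and 104 CPM at 4 h and 111, 122 and 88.9 CPM at 24 h, a log2 fold change of 0.09 ± 0.09 with overlapping libraries (edgeR adjusted p = 0.567). FHL1, the other uncalled member, had a log2 fold change of -0.15 ± 0.08 at an edgeR adjusted p of 0.192.

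RefSeq promoters of GRCh38.p14 were available for 25 of the 28 genes, and 7 of them (28%) held a CArG box, the SRF binding motif, in the 250 bases before the start. For a gene with several starts the table's first one was used. The motif was searched on both strands and was found in 312 of 27305 promoters of the same length (1.14%), and in none of the 20 promoters of NF-kappa-B targets or the 19 of cholesterol genes. Of the 11609 tested genes with a promoter, 119 (1.03%) held the CArG box. It was also held by 3 of 13 promoters of smooth muscle contractile and myocardin family genes (23.1%). The list was drawn up as SRF targets, so its high share does not test the motif. A match is a description of the letters and not a measured site. The 7 windows, each of 150 bases from those 250, placed so that at most 30 bases lie in an annotated exon of another transcript of the gene, and read on the gene's strand with the CArG box in capitals, are shown so that the match can be read in 6 genes that rose and in SRF, which was not called.

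ACTG2: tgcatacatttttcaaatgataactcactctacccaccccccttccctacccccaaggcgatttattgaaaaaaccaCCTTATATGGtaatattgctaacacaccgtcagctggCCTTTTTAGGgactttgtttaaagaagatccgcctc
ACTG1: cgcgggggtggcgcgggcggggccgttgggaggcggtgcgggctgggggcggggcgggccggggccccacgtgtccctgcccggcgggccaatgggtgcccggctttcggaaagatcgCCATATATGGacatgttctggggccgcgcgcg
FHL2: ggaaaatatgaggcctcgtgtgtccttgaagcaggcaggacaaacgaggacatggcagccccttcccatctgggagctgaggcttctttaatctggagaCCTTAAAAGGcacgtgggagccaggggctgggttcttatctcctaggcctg
CNN2: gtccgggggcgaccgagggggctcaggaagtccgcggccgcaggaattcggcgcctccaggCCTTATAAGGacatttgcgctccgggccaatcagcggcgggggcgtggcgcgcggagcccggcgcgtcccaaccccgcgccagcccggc
FLNA: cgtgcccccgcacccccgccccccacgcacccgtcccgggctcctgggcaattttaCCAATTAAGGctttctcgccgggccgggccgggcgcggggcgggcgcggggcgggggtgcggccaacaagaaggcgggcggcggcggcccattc
TPM4: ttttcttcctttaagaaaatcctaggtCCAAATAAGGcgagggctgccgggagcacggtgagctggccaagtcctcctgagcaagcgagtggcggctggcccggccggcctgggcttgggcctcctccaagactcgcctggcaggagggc
SRF: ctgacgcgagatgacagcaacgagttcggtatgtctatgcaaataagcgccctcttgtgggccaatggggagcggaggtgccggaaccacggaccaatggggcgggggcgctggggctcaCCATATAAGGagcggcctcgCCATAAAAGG

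The windows lie at chr2:73892821-73892970 on the plus strand for ACTG2, chr17:81512862-81513011 on the minus strand for ACTG1 and chr2:105438564-105438713 on the minus strand for FHL2. Those of CNN2 and TPM4 lie at chr19:1026458-1026607 and chr19:16067338-16067487 on the plus strand, that of FLNA at chrX:154374635-154374784 on the minus strand and that of SRF at chr6:43171119-43171268 on the plus strand. ACTG2, smooth muscle gamma-actin, carries the box in 2 places and rose from 2.00, 1.36 and 2.60 CPM to 7.00, 5.84 and 8.12 CPM (log2 fold change 1.82 ± 0.23, edgeR adjusted p = 3.16e-06). CNN2, calponin 2, rose with a log2 fold change of 0.64 ± 0.10, TPM4 with 0.57 ± 0.07 and FLNA, the filament cross-linker filamin A, with 0.53 ± 0.08. ACTG2, CNN2, TPM4, FLNA and SRF are named because their promoters held the motif, after their values were known. SRF carries 2 boxes, the nearer one ending at the base before its start, and its libraries overlapped.

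Of 17 smooth muscle contractile and myocardin family genes, 9 rose and none fell (median log2 fold change 0.41). MYOCD, myocardin, the SRF coactivator of smooth muscle, measured 3.87, 2.12 and 3.67 CPM at 4 h and 13.4, 8.02 and 6.04 CPM at 24 h (log2 fold change 1.5 ± 0.29, edgeR adjusted p = 0.00132). Its 24 h libraries were spread widely among themselves but all lay above the 4 h libraries. CSRP1, a LIM protein of actin filaments, rose with a log2 fold change of 0.79 ± 0.08, LPP with 0.96 ± 0.16, TNS1, tensin 1, with 0.86 ± 0.14 and PALLD, palladin, with 0.65 ± 0.10. Among genes with the smallest p outside the lists, MYADM, a membrane raft protein, rose from 114, 107 and 111 CPM to 316, 358 and 271 CPM, and CRISPLD2, a secreted protein, from 11.2, 11.2 and 14.5 CPM to 44.7, 45.7 and 38.6 CPM.

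Among YAP and TAZ targets, the genes induced when cells spread and pull on their matrix, 16 of 24 were higher, none lower and a median log2 fold change of 0.42. CCN1, a secreted matricellular protein, measured 363, 307 and 374 CPM and then 662, 713 and 651 CPM (log2 fold change 0.96 ± 0.09, edgeR adjusted p = 4.48e-08). CCN2, connective tissue growth factor, measured 123, 91.8 and 109 CPM and then 141, 184 and 175 CPM (log2 fold change 0.62 ± 0.12, edgeR adjusted p = 0.00116). Both were separated, CCN2 by less than the spread within either time. IGFBP3, an insulin-like growth factor carrier, rose with a log2 fold change of 1.68 ± 0.17, CRIM1 with 1.04 ± 0.11 and DLC1, a RhoA GTPase-activating protein, with 0.85 ± 0.12.

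**Figure D2:**
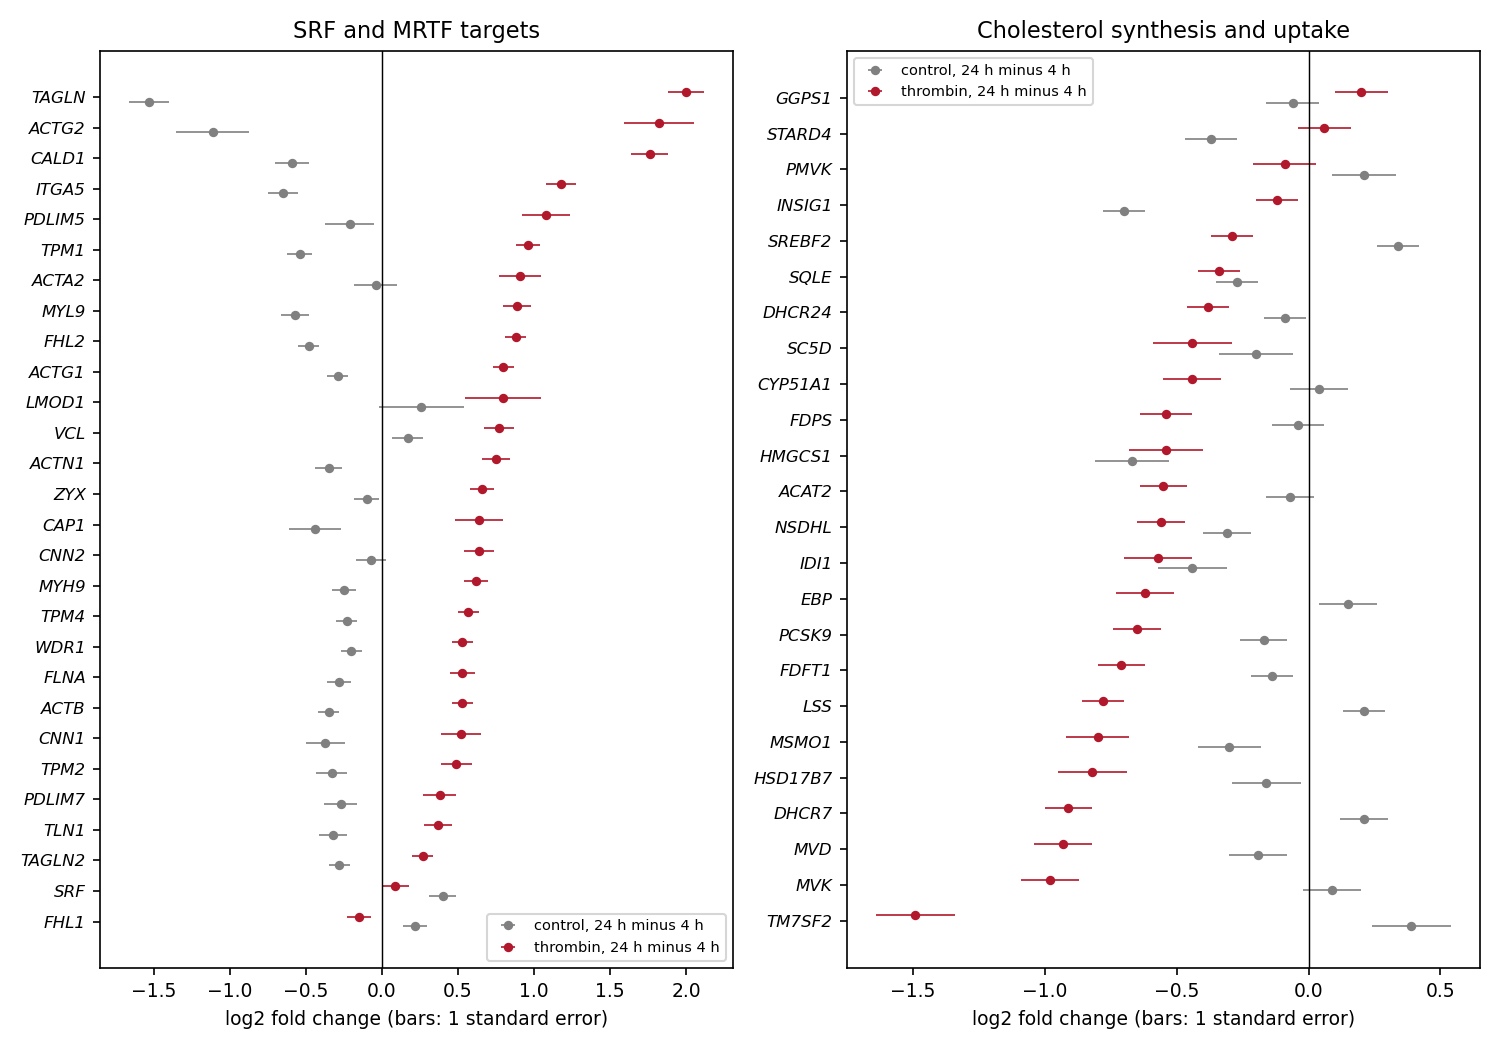
Change between 24 h and 4 h for tested members of 2 gene lists (all 28 SRF and MRTF targets, 24 of the 26 cholesterol genes). Points are log2 fold changes, bars are 1 standard error, red is thrombin and grey is control. Over the whole lists, 26 of 28 SRF and MRTF targets were called higher and 21 of 26 cholesterol genes lower with thrombin. In control, 16 SRF and MRTF targets were called lower, and 8 cholesterol genes were called lower as well.

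The main thrombin receptor fell, and the other protease-activated receptors differed. F2R (chr5:76716126-76735770) encodes PAR1, the main thrombin receptor of stellate cells. It measured 243, 227 and 227 CPM at 4 h and 162, 157 and 140 CPM at 24 h (log2 fold change -0.60 ± 0.08, edgeR adjusted p = 4.74e-06), with no overlap. F2RL1, which encodes PAR2, fell from 6.53, 7.12 and 5.37 CPM to 2.42, 2.17 and 2.99 CPM (log2 fold change -1.31 ± 0.23, edgeR adjusted p = 0.000254). F2RL2, which encodes PAR3, was near or under 1 CPM in all 6 libraries and was not called (log2 fold change -0.69 ± 0.40, edgeR adjusted p = 0.274). Without 24 h library 13 it was called lower (log2 fold change -1.36, adjusted p = 0.0455). F2RL3, which encodes PAR4, was too low to test.

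SERPINE2, protease nexin 1, an inhibitor of thrombin, fell from 130, 120 and 108 CPM to 80.9, 89.4 and 80.7 CPM (log2 fold change -0.51 ± 0.10, edgeR adjusted p = 0.000532). PROCR, the protein C receptor, had a log2 fold change of -0.41 ± 0.12 at an edgeR adjusted p of 0.0211 and lost its call without 24 h library 14 (adjusted p = 0.16), without 4 h library 13 or 14, and in the fit of the compared libraries (0.0686). THBD, thrombomodulin, was the 1 member of 8 that rose (log2 fold change 1.26 ± 0.38, edgeR adjusted p = 0.0275), its libraries overlapped, and without 24 h library 14 it was not called (adjusted p = 0.284). It also lost its call without 4 h library 12 or 14. In all, 4 of the 8 tested receptors and binding proteins fell and 1 rose, with a median log2 fold change of -0.46.

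Genes of coagulation and plasminogen activation rose in 7 of 15 cases and fell in 3 (median log2 fold change 0.24). PLAT, the tissue plasminogen activator, rose from 340, 360 and 383 CPM to 664, 941 and 992 CPM (log2 fold change 1.26 ± 0.14). F3, tissue factor, the trigger of the clotting cascade that makes thrombin, rose from 64.7, 54.4 and 73.1 CPM to 128, 141 and 150 CPM (log2 fold change 1.12 ± 0.14, edgeR adjusted p = 4.01e-06). In both genes the 24 h libraries lay well clear of those of 4 h. TFPI2, a Kunitz-type inhibitor, rose with a log2 fold change of 0.73 ± 0.13, and VWF fell with -0.71 ± 0.15.

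In the TGF-beta and SMAD response list 10 of 23 genes rose and none fell (median log2 fold change 0.33). Without 24 h library 13 the count was 6. TGFBI, a matrix protein induced by TGF-beta, rose from 298, 246 and 262 CPM to 599, 633 and 476 CPM (log2 fold change 1.08 ± 0.11, edgeR adjusted p = 8.23e-08). The inhibitors SMAD7 and SKIL rose with log2 fold changes of 0.79 ± 0.11 and 0.65 ± 0.14. The activin subunits INHBA and INHBB rose with 2.04 ± 0.23 and 1.32 ± 0.19: INHBA measured 13.3, 14.3 and 15.4 CPM at 4 h and 48.4, 66.0 and 62.1 CPM at 24 h. GREM1, gremlin, a secreted BMP antagonist, rose from 334, 359 and 395 CPM to 856, 943 and 844 CPM, and BMP4, a ligand it binds, fell from 53.4, 49.8 and 52.6 CPM to 38.5, 34.1 and 34.4 CPM. These were among 6 of 20 activin and BMP genes that rose and 1 that fell.

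Matrix genes differed by family. Among 26 matricellular and adhesive glycoproteins 14 rose and none fell (median log2 fold change 0.44). TNC, tenascin C, measured 199, 181 and 162 CPM and then 646, 560 and 499 CPM (log2 fold change 1.65 ± 0.20, edgeR adjusted p = 3.20e-05). THBS1, thrombospondin 1, measured 308, 240 and 284 CPM and then 663, 669 and 627 CPM (log2 fold change 1.24 ± 0.12). FN1, fibronectin, rose with a log2 fold change of 0.94 ± 0.17. All 3 had 24 h libraries wholly above those of 4 h.

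Collagen chains rose in 9 of 22 cases and fell in 1, with a median log2 fold change of 0.25. The largest were in the basement membrane chain COL4A1 (log2 fold change 0.96 ± 0.18) and the anchoring fibril chain COL7A1 (0.79 ± 0.10). COL1A1, the main fibrillar chain, measured 2229, 2071 and 1860 CPM and then 2620, 2724 and 2804 CPM (log2 fold change 0.40 ± 0.10, edgeR adjusted p = 0.00728). It was not called without 4 h library 14 (adjusted p = 0.0638). COL1A2 had a log2 fold change of 0.58 ± 0.19 at an edgeR adjusted p of 0.041 and lost its call without 4 h library 13 or 14 or any 1 of the 3 libraries of 24 h. COL3A1 measured 383, 305 and 288 CPM and then 266, 218 and 158 CPM and was not called (log2 fold change -0.61 ± 0.25, edgeR adjusted p = 0.132). Without 4 h library 13 or 14 the count of chains that rose was 5 or 4. COL4A5 was the chain that fell (log2 fold change -0.40 ± 0.08).

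Enzymes that modify collagen split in both directions, with 5 of 18 higher and 6 lower. LOXL2, a lysyl oxidase that cross-links collagen, rose from 356, 312 and 356 CPM to 752, 799 and 782 CPM (log2 fold change 1.19 ± 0.10, edgeR adjusted p = 2.66e-09), while its relative LOXL1 fell from 100, 98.5 and 103 CPM to 79.4, 84.8 and 73.0 CPM (log2 fold change -0.35 ± 0.09, edgeR adjusted p = 0.0114). LOXL1 lost its call without 24 h library 14. The hydroxylases P4HA2, PLOD2 and P3H2 rose with log2 fold changes of 0.52 to 0.66. LOX also rose, and LOXL3, P4HA1, P3H3, P3H4 and CRTAP fell with LOXL1. The 6 falls had log2 fold changes of -0.62 to -0.21. LOX and these further falls were named after their values were seen. Each of them lost its call in some fits without 1 library. LOXL2 and LOXL1 therefore went opposite ways in the same libraries, as did members of the hydroxylase family.

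Of 24 matrix proteases and inhibitors 7 rose and 2 fell, against 7.85% and 7.28% of all tested genes. TIMP3, a matrix-bound metalloprotease inhibitor, rose from 314, 296 and 303 CPM to 613, 637 and 600 CPM (log2 fold change 1.02 ± 0.08, edgeR adjusted p = 3.75e-09), and TIMP1 was not called (log2 fold change 0.19 ± 0.09, edgeR adjusted p = 0.144). MMP9, a gelatinase, rose from 30.0, 27.7 and 30.0 CPM to 78.8, 74.3 and 68.7 CPM, and ADAM19 rose with a log2 fold change of 1.35 ± 0.13. Of 17 integrin subunits 6 rose and 1 fell, against the same shares of all tested genes. ITGA5 and ITGB1, which pair to form the fibronectin receptor, rose with log2 fold changes of 1.18 ± 0.10 and 0.65 ± 0.11.

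Among the stellate activation markers 10 of 18 rose and none fell, with a median log2 fold change of 0.40. PDGFRA was low but separated, at 2.19, 1.51 and 1.33 CPM and then 4.17, 3.74 and 4.46 CPM (log2 fold change 1.29 ± 0.26, edgeR adjusted p = 0.000938). PDGFRB, the receptor most often used to mark stellate cells, was not called, at 71.7, 63.7 and 67.3 CPM and then 70.0, 64.6 and 54.7 CPM (log2 fold change -0.10 ± 0.16, edgeR adjusted p = 0.73). Stellate identity markers split: RELN, reelin, and the adhesion molecule ALCAM rose, and NTM, neurotrimin, and the transcription factor HAND2 fell, among 13 tested. RELN rose from 1.63, 1.56 and 1.22 CPM to 11.4, 12.0 and 14.6 CPM (log2 fold change 3.10 ± 0.33, edgeR adjusted p = 1.30e-06). HAND2 lost its call without 4 h library 13 or 24 h library 12 or 13. The summed identity markers ran from 422.8 to 456.6 CPM at 4 h and from 530.8 to 609.7 CPM at 24 h.

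Of 12 tested chemokines 6 rose and none fell, with a median log2 fold change of 0.71. CCL2 (chr17:34255285-34257203), the monocyte attractant MCP-1, measured 5.78, 5.80 and 4.31 CPM at 4 h and 29.6, 29.0 and 20.2 CPM at 24 h (log2 fold change 2.30 ± 0.22, edgeR adjusted p = 2.12e-07). CXCL8, interleukin 8, measured 6.95, 6.96 and 7.81 CPM and then 26.0, 57.0 and 56.5 CPM (log2 fold change 2.69 ± 0.45, edgeR adjusted p = 0.00129). At 24 h library 12 held the least CXCL8, but still lay above all 3 libraries of 4 h. CXCL6, another neutrophil attractant, rose with a log2 fold change of 1.03 ± 0.17. CCL7 and CCL26 were under 5 CPM throughout and rose with 2.15 ± 0.32 and 1.54 ± 0.32.

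Targets and feedback genes of NF-kappa-B, the transcription factor of inflammatory signalling, rose in 13 of 24 cases, and none fell (median log2 fold change 0.48). TNFRSF9, the co-stimulatory receptor 4-1BB, measured 5.41, 5.55 and 4.73 CPM and then 30.3, 23.8 and 12.5 CPM (log2 fold change 2.07 ± 0.23, edgeR adjusted p = 1.66e-06). TNFAIP3, the feedback inhibitor A20, measured 22.3, 27.4 and 29.8 CPM and then 48.9, 66.1 and 65.3 CPM (log2 fold change 1.18 ± 0.17, edgeR adjusted p = 3.94e-05). TRAF1 rose with a log2 fold change of 1.84 ± 0.26, BIRC2 with 0.83 ± 0.13 and NFKB1, the p105 precursor, with 0.55 ± 0.09. TNFRSF9 and TRAF1 varied among the 24 h libraries, with library 14 lowest in both, yet each was separated from 4 h.

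Of the 20 members of this list with a RefSeq promoter, 9 (45%) held the NF-kappa-B motif in the 250 bases before the start, against 2614 of 27305 promoters (9.57%). Of the 11609 tested genes with a promoter, 1373 (11.8%) held that motif. Both strands were searched, and overlapping matches count as 1 promoter. This list was drawn up as NF-kappa-B targets, so its high share does not test the motif. The motif was also held by 6 of 25 SRF and MRTF targets (24%), 5 of 9 chemokines (55.6%) and 5 of 19 cholesterol genes (26.3%). The AP-1 motif TGANTCA was held by 1801 promoters (6.60%), CXCL8 and TNFRSF9 among them. Windows of 150 bases from those of 3 genes that rose are shown as the inflammatory counterpart of the ones above, placed by the same rule. Capitals mark the NF-kappa-B motif in TNFRSF9 and NFKB1 and the AP-1 motif in CXCL8. The AP-1 match of TNFRSF9 lies nearer its start than the window, as does the last base of a second NF-kappa-B match that overlaps the one in capitals.

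TNFRSF9: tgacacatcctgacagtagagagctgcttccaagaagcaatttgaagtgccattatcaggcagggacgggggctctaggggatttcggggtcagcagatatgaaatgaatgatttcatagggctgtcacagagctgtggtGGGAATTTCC
NFKB1: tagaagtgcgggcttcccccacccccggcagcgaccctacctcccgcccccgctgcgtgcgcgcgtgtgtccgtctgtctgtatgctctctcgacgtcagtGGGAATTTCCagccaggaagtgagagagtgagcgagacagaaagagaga
CXCL8: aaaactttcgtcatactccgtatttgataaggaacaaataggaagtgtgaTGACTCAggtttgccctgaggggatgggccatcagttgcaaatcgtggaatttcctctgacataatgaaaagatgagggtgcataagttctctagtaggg

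They lie at chr1:7940904-7941053 on the minus strand (TNFRSF9) and, on the plus strand, at chr4:102501209-102501358 (NFKB1) and chr4:73740382-73740531 (CXCL8). Within the window of CXCL8 no stretch matched the NF-kappa-B letters searched, GGGRNNYYCC (R is A or G, Y is C or T, N is any base). The stretch tggaatttcc in that window differs from them at its first base only. Whether it is a site was not tested.

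Interleukin 6 family and interleukin 1 genes rose in 9 of 18 cases and none fell (median log2 fold change 0.45), but the count was 3 without 4 h library 13. LIF, leukemia inhibitory factor (chr22:30240453-30246759), measured 6.57, 6.61 and 8.03 CPM at 4 h and 35.7, 48.5 and 35.9 CPM at 24 h (log2 fold change 2.5 ± 0.23, edgeR adjusted p = 3.36e-07). IL1B measured 20.1, 28.3 and 24.99 CPM and then 38.6, 71.5 and 73.2 CPM (log2 fold change 1.32 ± 0.31, edgeR adjusted p = 0.0121). IL6 itself was near or under 1 CPM and was not called (log2 fold change 0.97 ± 0.46, edgeR adjusted p = 0.168). LIF was thus clearly separated, and IL1B, like CXCL8, was lowest in 24 h library 12.

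Growth factors rose in 9 of 24 cases and fell in 1, and their receptors rose in 8 of 19 and fell in 2. FGF1, acidic fibroblast growth factor, measured 8.90, 8.33 and 10.5 CPM and then 36.0, 31.9 and 33.6 CPM (log2 fold change 1.88 ± 0.13, edgeR adjusted p = 1.63e-10). FGF2 rose with a log2 fold change of 1.19 ± 0.10, HBEGF, a ligand of the EGF receptor, with 1.02 ± 0.13, and PDGFA and PDGFB with 0.89 ± 0.10 and 0.95 ± 0.14. Among receptors, IGF1R rose with 1.06 ± 0.14, NRP2 with 0.81 ± 0.11, and FGFR1 and AXL with 0.44 ± 0.08 and 0.41 ± 0.08.

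In the NFAT and calcium signalling list 3 of 19 genes rose and 2 fell. NFATC2 (chr20:51386963-51562839), a calcium- and calcineurin-activated transcription factor, measured 1.82, 1.51 and 2.29 CPM at 4 h and 28.1, 27.7 and 19.4 CPM at 24 h (log2 fold change 3.74 ± 0.24, edgeR adjusted p = 1.34e-10). TRPC4, a receptor-operated cation channel, measured 1.82, 1.01 and 1.12 CPM and then 12.0, 9.92 and 6.21 CPM (log2 fold change 2.81 ± 0.27, edgeR adjusted p = 4.48e-08). ATP2B4, a plasma membrane calcium pump, rose with 0.92 ± 0.12, while NFATC4 and the store-operated channel ORAI1 fell with log2 fold changes of -0.49 ± 0.11 and -0.38 ± 0.09. The 2 NFAT members therefore moved in opposite directions. NPPB, the natriuretic peptide precursor, was under 1 CPM at 4 h and measured 5.58, 5.505 and 6.54 CPM at 24 h (log2 fold change 3.69 ± 0.31, edgeR adjusted p = 6.57e-09). EDN1, endothelin 1, a constrictor of stellate cells, rose from 2.94, 2.62 and 3.67 CPM to 8.07, 8.49 and 7.05 CPM.

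Early regulators moved in both directions, with 6 of 24 immediate early genes higher and 4 lower. FOSL2, an AP-1 subunit, rose with a log2 fold change of 0.68 ± 0.10 and MYC with 0.62 ± 0.08, and KLF4 fell from 37.7, 35.1 and 34.7 CPM to 20.04, 25.3 and 17.0 CPM (log2 fold change -0.79 ± 0.16, edgeR adjusted p = 0.00146). EGR1, a classical early response gene, was not called and overlapped, at 72.6, 37.5 and 49.9 CPM and then 45.9, 46.3 and 19.6 CPM (edgeR adjusted p = 0.485). Of 20 feedback inhibitors of the kinase ERK and ETV factors 5 rose and 3 fell, with the phosphatases DUSP1, DUSP10 and DUSP14 higher by log2 fold changes of 0.40 to 0.69.

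Regulators of G protein signalling and receptor desensitization rose in 2 of 20 cases and fell in 4, against 7.85% and 7.28% of all tested genes. GRK5, a kinase that desensitizes G protein-coupled receptors, fell from 97.8, 109 and 102 CPM to 67.5, 77.7 and 75.4 CPM (log2 fold change -0.48 ± 0.08, edgeR adjusted p = 0.000115). RGS17 fell with a log2 fold change of -0.77 ± 0.13. RGS4, which speeds the turn-off of Gq and Gi, had 0.70 ± 0.18 (edgeR adjusted p = 0.0124) and lost its call without 4 h library 13 or 14 or 24 h library 14.

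The Hedgehog pathway list had 4 of 11 members lower and none higher. PTCH1, a receptor that Hedgehog signalling itself induces, and the transcription factor GLI1 fell with log2 fold changes of -0.68 ± 0.11 and -0.73 ± 0.14. PTCH1 measured 35.7, 31.9 and 33.1 CPM at 4 h and 21.5, 21.0 and 20.4 CPM at 24 h (edgeR adjusted p = 6.51e-05). GLI1 measured 17.7, 19.7 and 20.04 CPM and then 15.1, 10.3 and 9.20 CPM (edgeR adjusted p = 0.000903). Both were separated, GLI1 with its highest 24 h level in library 12. SMO, the signal transducer, had a log2 fold change of -0.27 ± 0.09 at an edgeR adjusted p of 0.0497 and was not called with DESeq2's size factors (adjusted p = 0.0531), with no filter on low counts (0.0506), with only the libraries compared (0.114), or without 4 h library 13 or 14 or 24 h library 12 or 14 (up to 0.196).

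Of the lists with at least 8 tested genes, cholesterol synthesis and uptake had the highest share of members that fell: 21 of 26 fell and none rose, with a median log2 fold change of -0.55, against 7.28% of all tested genes that fell. DHCR7 (chr11:71427287-71449043), which makes cholesterol from 7-dehydrocholesterol, measured 648, 678 and 670 CPM at 4 h and 375, 383 and 303 CPM at 24 h (log2 fold change -0.91 ± 0.09, edgeR adjusted p = 3.80e-08). LSS, lanosterol synthase, measured 426, 469 and 408 CPM and then 248, 265 and 244 CPM (log2 fold change -0.78 ± 0.08, edgeR adjusted p = 1.96e-07). TM7SF2, a sterol reductase, fell most, from 85.3, 99.5 and 88.7 CPM to 32.7, 38.2 and 26.5 CPM (log2 fold change -1.49 ± 0.15). In each, the 24 h libraries were far below those of 4 h.

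MVK, mevalonate kinase, and FDFT1, squalene synthase, fell with log2 fold changes of -0.98 ± 0.11 and -0.71 ± 0.09. HMGCS1, which makes HMG-CoA at the entry to the pathway, measured 877, 750 and 593 CPM and then 624, 415 and 491 CPM with overlap (log2 fold change -0.54 ± 0.14, edgeR adjusted p = 0.0136). It lost its call without 4 h library 12 or 24 h library 13 or 14. Among the 5 members not called were INSIG1, the sterol sensor's partner, with a log2 fold change of -0.12, and GGPS1 with 0.20.

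Fatty acid and triglyceride synthesis had 9 of 22 members lower and 2 higher (median log2 fold change -0.26). ACSS2, which makes acetyl-CoA from acetate, had the smallest p of all genes that fell, from 132, 137 and 107 CPM to 58.5, 59.2 and 56.6 CPM (log2 fold change -1.11 ± 0.09, edgeR adjusted p = 6.57e-09). The desaturases FADS2, FADS1 and SCD fell with log2 fold changes of -0.76 ± 0.09, -0.60 ± 0.09 and -0.49 ± 0.08, and the elongase ELOVL6 with -0.60 ± 0.10. The 2 that rose, ACSL4 and GPAM, were named after their values were seen and were not called when 4 h library 13 or 14 or 24 h library 12 or 14 was left out. ABCA1, the cholesterol exporter, was the 1 of 12 efflux and LXR genes that rose, from 42.6, 31.6 and 40.4 CPM to 156, 133 and 148 CPM (log2 fold change 1.93 ± 0.19, edgeR adjusted p = 1.32e-06), and was also named after its value was seen. BDH1, a ketone body enzyme, and CDHR1 were 2 more of the 5 falls with the smallest p, at log2 fold changes of -0.98 for each.

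In the list of lipid droplet and retinoid storage genes 5 of 19 rose and none fell. The 5 are genes of retinoid transport, metabolism or sensing, as set out here, and the list was not divided beforehand. RARB, a retinoic acid receptor that retinoic acid induces, rose from 4.01, 2.57 and 2.39 CPM to 13.1, 10.9 and 12.9 CPM (log2 fold change 2.03 ± 0.19, edgeR adjusted p = 2.64e-08). DHRS3, which reduces retinal, rose with a log2 fold change of 2.11 ± 0.25, ALDH1A3, which makes retinoic acid, with 1.04 ± 0.13, CYP26B1, which degrades it, with 0.81 ± 0.14, and STRA6, a retinol transporter under 2 CPM, with 2.26 ± 0.46. Enzymes of synthesis and of breakdown rose in the same libraries.

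Keratins and periplakin split by gene, with 8 of 17 higher and 2 lower. The hair keratins KRT81 and KRT34 rose with log2 fold changes of 1.78 ± 0.18 and 1.79 ± 0.26, KRT81 from 9.60, 7.97 and 13.8 CPM to 28.0, 39.8 and 39.9 CPM. PPL, periplakin, which links keratin filaments to desmosomes, fell from 52.9, 39.9 and 46.2 CPM to 16.5, 14.5 and 10.0 CPM (log2 fold change -1.77 ± 0.26, edgeR adjusted p = 0.00022). KRTAP2-3 rose from 1.86, 1.97 and 2.29 CPM to 12.8, 21.4 and 30.1 CPM, but it and KRTAP2-4 are near-identical copies and their levels are uncertain. Epithelial markers summed to 177.4 to 195.5 CPM at 4 h and 149.7 to 241.9 CPM at 24 h, with CFTR at 0 and none of 6 called.

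With thrombin from 4 h to 24 h, few or no members were called in the lists of general cell functions. None of 34 cytosolic ribosomal protein genes, 30 nuclear-encoded respiratory chain genes or 15 histone genes was called, and 1 of 38 mitosis genes (ANLN, anillin, which binds actin in the cleavage furrow) rose. ANLN lost its call without 4 h library 14 or 24 h library 12. In DNA replication and G1/S genes 4 of 40 rose, against 7.85% of all tested genes. Above the share of all tested genes, ribosome biogenesis genes rose in 9 of 32 cases, RRP12 most clearly with a log2 fold change of 0.59 ± 0.09, but the count was 2 without 4 h library 13, 4 without 4 h library 14 or 24 h library 12 and 3 without 24 h library 14. Interferon-stimulated genes rose in 4 of 36 cases and fell in 3, against 7.85% and 7.28% of all tested genes. Endothelial markers split, with KDR and CDH5 higher and VWF and PECAM1 lower among 11 tested. Except for VWF these calls were lost when single libraries were left out: KDR without 24 h library 14, CDH5 without 4 h library 13 or 24 h library 12, and PECAM1 without library 12 or 13 of either time.

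**Figure D3:**
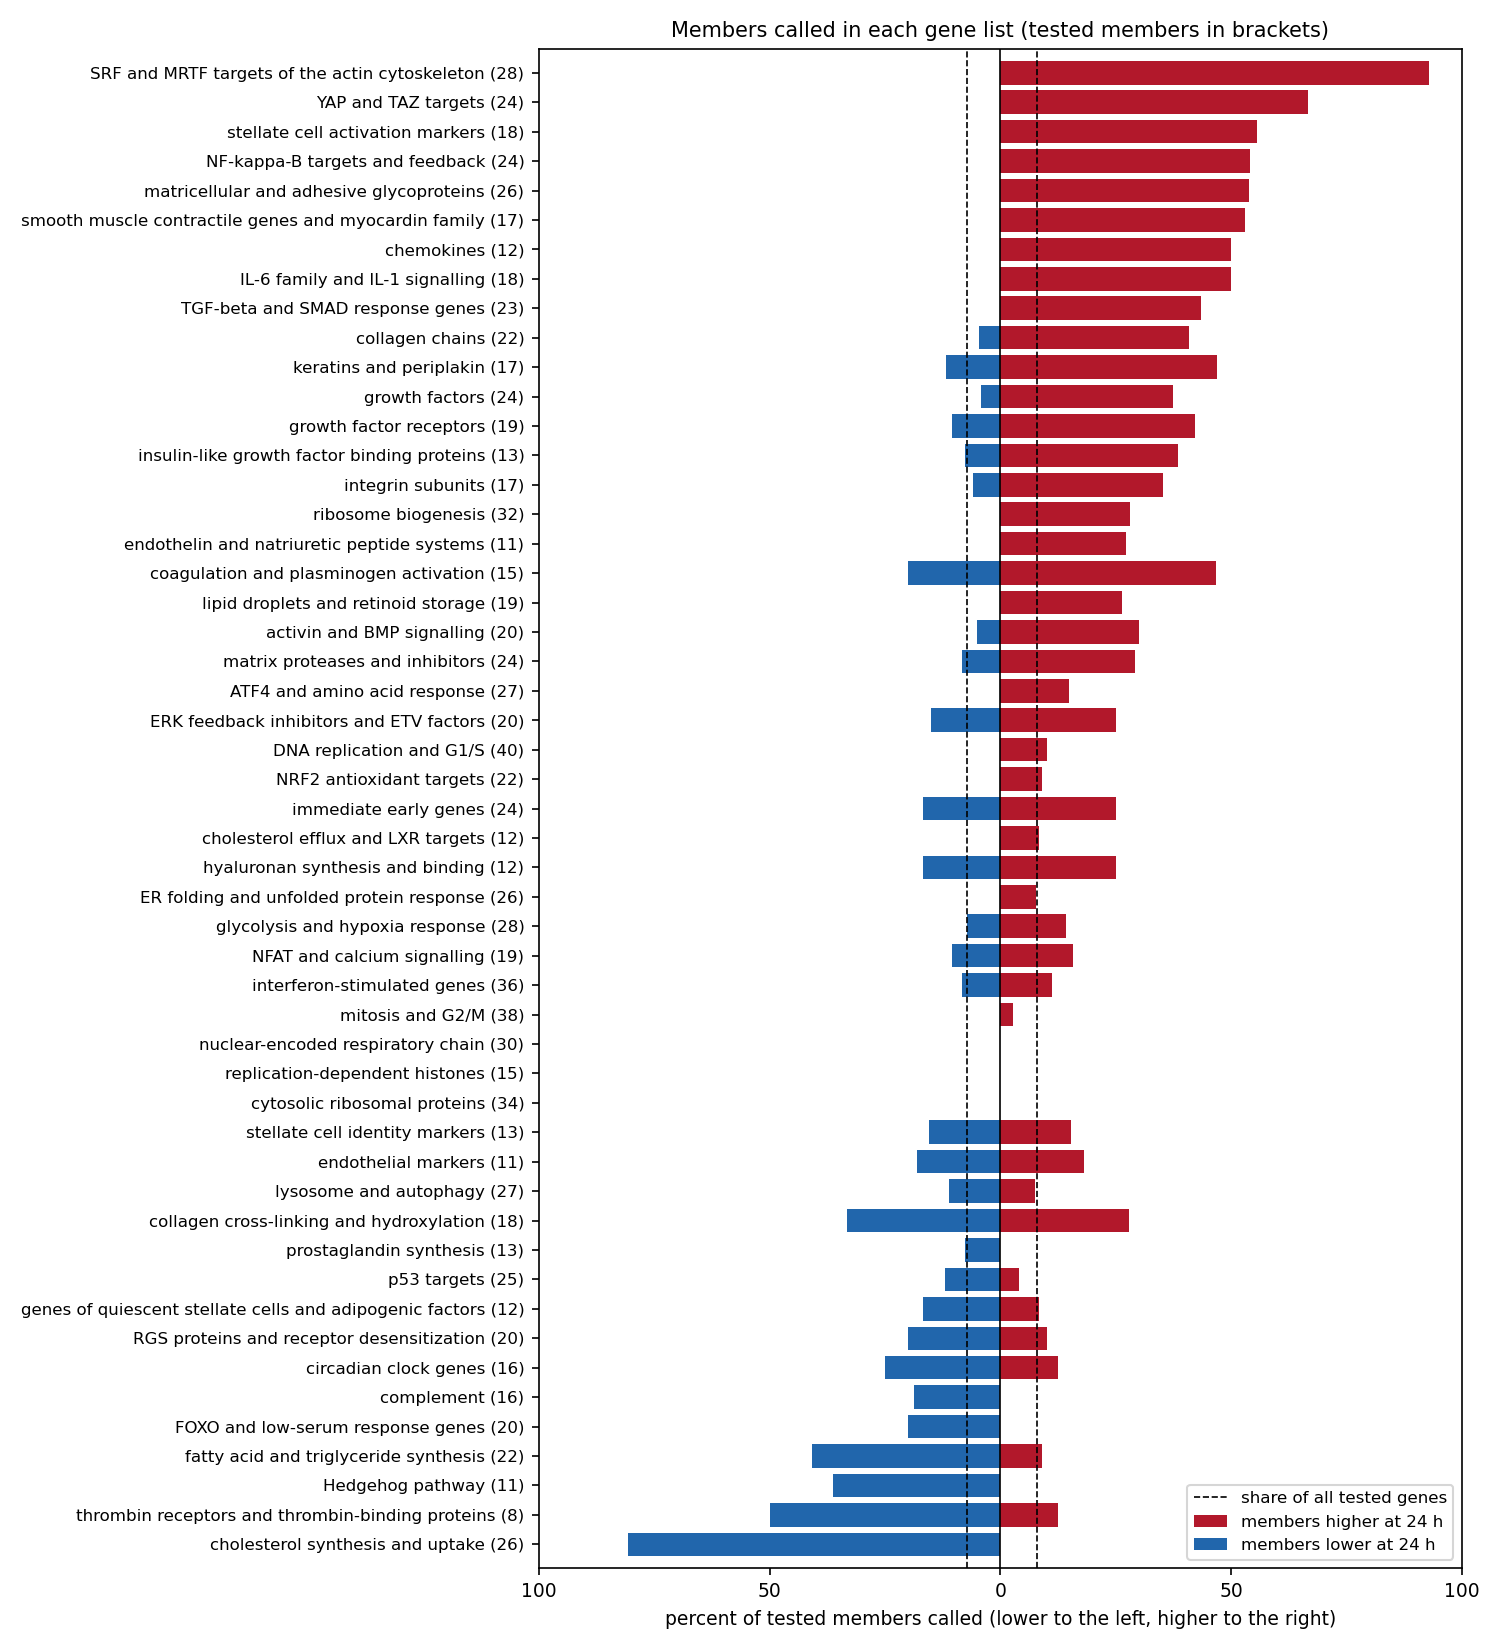
Share of tested members called in each gene list of at least 8 tested genes. Red bars to the right give the percent called higher at 24 h with thrombin, blue bars to the left the percent called lower, and dashed lines the shares of all tested genes (7.85% and 7.28%). SRF and MRTF targets stand at the top with 26 of 28 higher, and cholesterol synthesis and uptake at the bottom with 21 of 26 lower.

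The same time difference was measured in the control libraries, which share no library with the thrombin comparison and were fitted in the same model. From 4 h to 24 h in control 1243 genes rose (8.1%) and 1097 fell (7.15%), and of the 2340 called (15.2%), 1025 were also called with thrombin. Without control 4 h library 13 the falls numbered 711, without 4 h library 14 the rises and falls were 791 and 718, without 24 h library 12 they were 702 and 584, and without 24 h library 13 they were 746 and 657. Of the 1025 genes, 1004 had opposite signs: 492 rose with thrombin and fell in control, which is 40.8% of the thrombin rises and 44.8% of the control falls, and 512 fell with thrombin and rose in control (45.8% and 41.2%). Across all tested genes the 2 sets of log2 fold changes had a Pearson correlation of -0.53, a description over genes, which are not independent replicates. The difference of the 2 time effects itself was called in 4293 genes (28%), 2095 higher (13.6%) and 2198 lower (14.3%) with thrombin.

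**Figure D4:**
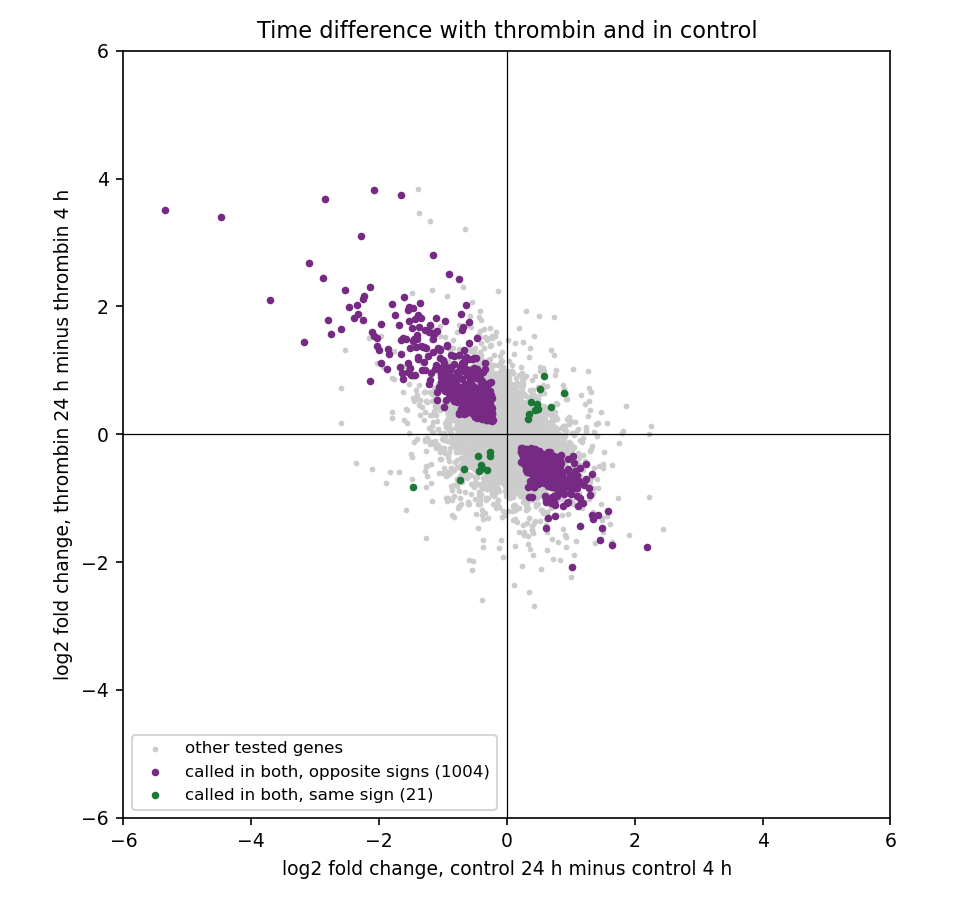
Time difference with thrombin against that in control. Each point is a gene, the horizontal axis is the log2 fold change from control 4 h to control 24 h, and the vertical axis is the log2 fold change from thrombin 4 h to thrombin 24 h. The 1004 purple genes were called in both with opposite signs and fill the upper left and lower right, and the 21 green genes were called in both with the same sign.

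TAGLN fell in control (log2 fold change -1.53 ± 0.13) as it rose with thrombin, and the difference was 3.53 ± 0.17 (edgeR adjusted p = 5.54e-13). F2R rose in control (0.65 ± 0.08), with a difference of -1.25 ± 0.11. Over the SRF and MRTF list 25 of 28 members had a called difference in the higher direction and 1 in the lower. For ACTA2 the control log2 fold change was -0.04 and for TRAF1 it was 0.50, neither called, while the differences of 0.95 ± 0.19 and 1.35 ± 0.37 were. In these genes the called change was thus with thrombin alone and the difference from control was itself called. A rise with time, or a difference of time effects, does not say whether a gene lay above or below control at either time. By the same test, 965 genes were higher and 848 lower with thrombin than in control at 4 h. At 24 h these counts were 1389 and 1311. Of these, 26 genes were higher and 112 lower at least 2-fold at 4 h, and 231 were higher and 153 lower at 24 h. The rises and falls from 4 h to 24 h thus start from thrombin 4 h levels that themselves differed from control.

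Many sterol genes did not have opposite signs. In control 8 of the 26 cholesterol genes fell and 1 rose, so the median was -0.15 in control and -0.55 with thrombin, and the difference was called lower in 14 genes and higher in 2. HMGCS1 fell in both (-0.54 and -0.67) and its difference was 0.13 ± 0.20 (edgeR adjusted p = 0.676). INSIG1, not called with thrombin, fell in control (-0.70 ± 0.08), with a difference of 0.59 ± 0.11 (edgeR adjusted p = 0.000359). DHCR7 had 0.21 ± 0.09 in control, not called, and a difference of -1.13 ± 0.12. Of the 13 NF-kappa-B targets and feedback genes that rose with thrombin, 5 had the opposite sign in control and 8 had a called difference. Of all genes called with thrombin these shares were 89.3% and 89.1%. In control 6 of the 24 genes of that list rose (8.1% of all tested genes did) and 3 fell (7.15%), with a median of 0.16.

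Of the 21 genes called in both with the same sign, 10 fell and 11 rose. Those that fell included C10orf143, VWF, IDI1, NSDHL, HMGCS1, FASN, LPIN1, TMEM154 and SQLE, of which IDI1, NSDHL, HMGCS1 and SQLE belong to the cholesterol list and FASN and LPIN1 to fatty acid and triglyceride synthesis. Those that rose were ARMC9, MAGI1, TGFBR3, PAQR5, PLEKHA4, NR4A1, APOL2, ZSWIM4, GBP2, RELB and ICAM1. RELB, a subunit of NF-kappa-B, measured 44.5, 49.9 and 49.3 CPM at thrombin 4 h and 78.0, 90.8 and 65.4 CPM at thrombin 24 h (log2 fold change 0.70 ± 0.12), and rose by 0.51 on the log2 scale in control. None of the 21 had a called difference between the treatments, which does not show that the 2 time effects were equal. Except for those in the lists, these genes were named after their values were seen. In thrombin NR4A1 lost its call in the fit of the compared libraries and without 4 h library 12 or 13 or 24 h library 13, and GBP2 without 4 h library 14 or 24 h library 12.

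Both times were also compared with thrombin 48 h, and these comparisons share the 4 h or 24 h libraries with the one above. Between 48 h and 4 h 170 genes were called (1.11%), and between 48 h and 24 h 1492 (9.72%). Without 4 h library 12, 13 or 14 the count for 48 h against 4 h was 559, 38 or 52, and without 48 h library 12, 13 or 14 it was 107, 53 or 57. The count for 48 h against 24 h was 905 without 24 h library 14 and 883 without 48 h library 13. NFATC2 had a log2 fold change of 3.74 from 4 h to 24 h and of 0.10 ± 0.31 from 4 h to 48 h. TAGLN had 2.00 and 0.84 ± 0.12, CALD1 1.76 and 0.98 ± 0.11, CCN1 0.96 and 0.85 ± 0.09, and DHCR7 -0.91 and -0.22 ± 0.09. Of the 26 SRF and MRTF targets that rose by 24 h, 4 were called higher at 48 h than at 4 h (0.638% of all tested genes were), and 21 were called lower at 48 h than at 24 h (5.41%). Of the 21 cholesterol genes that fell, 19 were called higher at 48 h than at 24 h (4.31%). The members of both lists were picked by their calls in the same 4 h and 24 h libraries. That choice favours such calls in advance, and the shares of all tested genes carry no such choice. These counts therefore do not test a return toward the 4 h level.

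**Figure D5:**
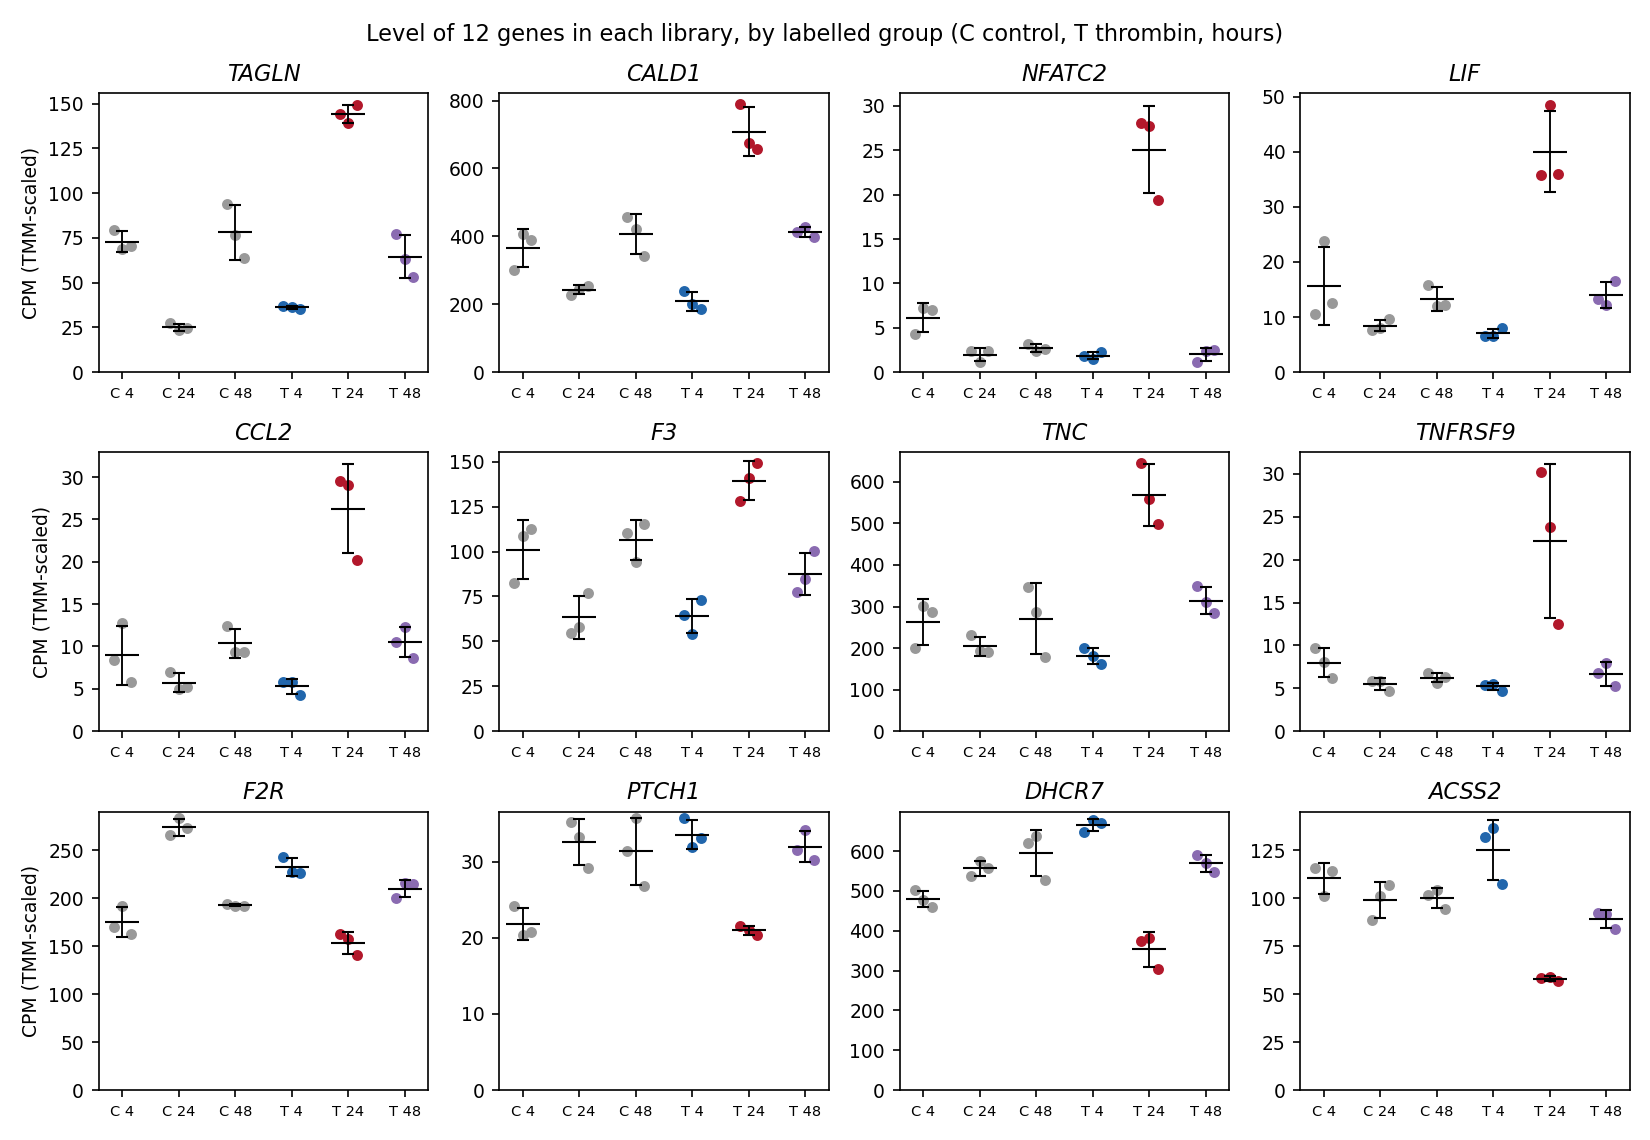
Level of 12 genes in each library of the 6 labelled groups. Each panel is 1 gene, the vertical axis is TMM-scaled CPM from 0, points are single libraries, and bars are the mean and SD of 3. C is control and T is thrombin, with the hours after it; grey is control, blue thrombin 4 h, red thrombin 24 h and purple thrombin 48 h. In TAGLN, CALD1, NFATC2, LIF, CCL2, F3, TNC and TNFRSF9 the red points lie above the blue ones, and in F2R, PTCH1, DHCR7 and ACSS2 below them.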

How the data were processed

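The poly(A) RNA of LX-2 cells was sequenced in 18 libraries, 3 in each of 6 groups of treatment and time given by the labels. The authors deposited raw counts per gene symbol. As tools, cutadapt 4.9, Bowtie2 2.5.4, SAMtools 1.21 and DESeq2 (GRCh38, hg38) are listed per the submitters' processing notes. Their roles, the counter, the annotation and the strand setting are not given in the sources used here, so near-identical genes (KRTAP2-3, KRTAP2-4, ACTB, ACTG1, histones, ribosomal proteins) and overlapping or antisense genes are uncertain in level. Every column matched 1 library by name (0 left over), and 0 entries lacked a gene name. Of 28278 symbols, 4439 had no count.

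The counts were tested with edgeR 4.0.16 (R 4.3.3). The function filterByExpr (minimum count 10, minimum total 15) left 15353 genes, which hold no less than 99.9% of the counts in any library, and TMM set the scaling. One quasi-likelihood model of the 6 group means, with robust dispersions, used all 18 libraries (biological coefficient of variation 9.07%, with 12 degrees of freedom left for the residuals). Tests were two-sided, adjusted by Benjamini-Hochberg over the 15353 genes, and a gene was called at an adjusted p under 0.05. The standard error is the log2 fold change divided by the square root of F. The time effects of thrombin and control were compared by the difference of both contrasts. Pairs of libraries in 1 group differed beyond sampling noise (chi-square per degree of freedom 5.79 to 16.97), and pairs across groups by 25.43 to 44.33. Among the thrombin 4 h libraries, 12 differed from 13 and 14 by 14.34 and 16.97, while 13 and 14 differed by 5.79.

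The comparison, the 55 gene lists (1182 symbols, 1030 tested) and the tests were chosen with earlier results of these data known. A list of mitochondrially encoded genes was not analysed here. The rule for named genes took the 12 largest changes each way with separated libraries and a mean of at least 1 CPM, the 5 smallest p each way, up to 5 called members with the smallest p of each list with at least 25% called, the 8 largest differences from control, and 24 anchor genes, in all 188. Uncalled list members could also be named, and a few genes the rule takes are not reported here. Genes outside it are said to be so or complete a small count.

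RefSeq (GRCh38.p14) gave coordinates for 14802 (96.4%) of the tested genes and promoters for 11609 (75.6%), and since under 80% had one, motif shares were not compared between all genes that rose and fell. On data simulated for thrombin 24 h against 4 h (15244 genes, 200 changed) the test called 73.1% of 1.5-fold, 86.6% of 2-fold and 97% of 4-fold changes, with 4.47% false calls. Those counts were drawn independently from fitted means and the trend of the dispersion. The rates therefore describe that model and not the deviations of single libraries seen here. Alternatives were DESeq2 1.42.0, its size factors, other filters, a fit of the compared libraries, a block for the library number, and fits without each library or each number.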

Additional observations from a re-analysis of the deposited data

Results flagged for a closer look

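The time effect differed between thrombin and control, by a test of the difference itself (edgeR, adjusted p under 0.05), in 2095 genes that were higher and 2198 that were lower with thrombin, together 28% of the genes tested. Both effects rest on the labels of the 4 groups. The 8 genes with the largest difference and a mean of at least 1 CPM over the 12 libraries all rose with thrombin from 4 h to 24 h and fell in control. They were picked by the size of that difference, which itself favours opposite signs. KRTAP2-4 differed by 8.86 and KRTAP2-3 by 7.88 on the log2 scale, and both are near-identical keratin-associated protein genes whose levels are uncertain. KRTAP2-4 was at 0 in 1 thrombin 4 h library and in 2 of the 3 control 24 h libraries, so its fitted value and its place depend on the prior count. NPPB differed by 6.53, the hair keratin KRT33B by 5.80, CXCL8 by 5.78, NFATC2 by 5.39, RELN by 5.37 and KRTAP1-5 by 5.31. CXCL8, the chemokine interleukin 8, had a log2 fold change of 2.69 with thrombin and -3.09 in control. NFATC2, the transcription factor, had 3.74 with thrombin and -1.65 in control, so more of its difference lay on the thrombin side. With 3 libraries in a group, single outlying libraries were not tested for.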

How the results depend on the processing

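The samples share only a number: same-numbered thrombin libraries of 4 h and 24 h had deviations correlated at 0.28, 0.10 and 0.02, and 4 h library 14 correlated best with 24 h library 13 (0.15). With the replicate block thrombin 24 h against 4 h called 2338 genes over all 18 libraries and 3137 over the 6 compared, 95.9% and 97.2% of the 2322 genes being shared. Of the named genes, SMO lost its call with the block over 18 libraries (adjusted p = 0.053) and RGS4 with it over the 6 compared (0.0537). Against control 24 h, thrombin 4 h called 21 and 3 genes with the block. Fitting only the libraries compared gave 713 genes lower for thrombin 24 h against 4 h and 301 called for thrombin 24 h against control 4 h (513 with all libraries). DESeq2 size factors kept 98.8% and the DESeq2 test 98.6% of the 2322 calls. With no filter on low counts, 490 genes were called for thrombin 48 h against 4 h and 68 for thrombin 4 h against control 24 h, and DESeq2 gave 302 and 31.

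Leaving out any 1 library gave 750 to 1432 genes higher and 634 to 1538 lower for thrombin 24 h against 4 h, 702 to 1190 higher and 584 to 1124 lower for the control times, and 1670 to 2306 higher and 1800 to 2404 lower for the difference of the time effects. It gave 38 to 559 for thrombin 48 h against 4 h, 883 to 1397 for 48 h against 24 h, 0 to 7 for thrombin 4 h against control 24 h and 324 to 546 for thrombin 24 h against control 4 h. Without all libraries numbered 12, 2826 genes were called for thrombin 24 h against 4 h, 2530 for 48 h against 4 h and 78 for thrombin 4 h against control 24 h. Without number 13 the counts were 364 higher and 221 lower for thrombin, 204 and 175 for control, 747 and 838 for the difference, 7 for 48 h against 4 h, 344 for 48 h against 24 h, 0 for thrombin 4 h against control 24 h and 110 for thrombin 24 h against control 4 h. Without number 14 they were 686 and 373, 802 higher for control, 1206 and 1214 for the difference, 59, 747 and 0 in the same order. These fits had fewer samples, and any other cause was not tested.

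Of the 183 named genes called, 115 were called in all 16 settings, 149 in every fit without 1 library, and none changed direction. EGR1 was called lower in the unfiltered fit alone. Over these settings 19 to 26 of 28 SRF and MRTF targets were called higher, 12 to 22 of 26 cholesterol genes lower and 3 to 11 of 22 collagen chains higher. Counts of reads near 1 CPM limit what can be said of KRTAP2-4, F2RL2, STRA6 and IL6.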

Other observations

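Gene groups not described above had small numbers of called genes, and most genes in these paragraphs were named after their values were seen. Of all tested genes 7.85% rose and 7.28% fell with thrombin from 4 h to 24 h. A count near these shares says nothing particular of its list. In the ATF4 and amino acid response list 4 of 27 genes rose with thrombin from 4 h to 24 h and none fell (edgeR). SLC7A5, a subunit of the large neutral amino acid transporter, had a log2 fold change of 1.57 ± 0.14, SLC7A1, a cationic amino acid transporter, 0.71 ± 0.12, CHAC1, which degrades glutathione, 0.99 ± 0.21, and MTHFD2, a mitochondrial folate enzyme, 0.55 ± 0.09. In the glycolysis and hypoxia list 4 of 28 rose and 2 fell: LDHA, lactate dehydrogenase A, rose with 0.55 ± 0.08, and SLC2A1, the glucose transporter GLUT1, fell with -0.49 ± 0.08. The insulin-like growth factor binding proteins had 5 of 13 higher and 1 lower, with STC2 at 1.01 ± 0.20 and IGFBP2 at -0.79 ± 0.22, the latter not called without 4 h library 14 or 24 h library 12 or 14 (adjusted p = 0.065, 0.0584 and 0.0514). Among the endothelin and natriuretic peptide systems 3 of 11 rose. ETS1, a transcription factor in the list of quiescent stellate cell genes, rose with 1.02 ± 0.10, and PPARGC1A in the same list fell with -1.65 ± 0.47, among 12 tested. PPARGC1A was not called without 4 h library 14 or 24 h library 12 or 14 (adjusted p = 0.134, 0.0561 and 0.072).

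In the complement list 3 of 16 genes fell and none rose, with a median of -0.33: C3AR1, the C3a receptor, had -1.69 ± 0.33, C1RL -0.63 ± 0.14 and CLU, clusterin, -0.53 ± 0.10. Clock genes fell in 4 of 16 cases and rose in 2, with CIART at -0.82 ± 0.20, DBP at -0.70 ± 0.20 and BHLHE40 at 0.57 ± 0.08. DBP was not called without 4 h library 13 or 14 or 24 h library 14. FOXO and low-serum response genes fell in 4 of 20 cases and p53 targets in 3 of 25, with 1 p53 target higher, and CDKN1A, the cell cycle inhibitor p21, had -0.38 ± 0.10 with overlapping libraries and no call in the fit of the compared libraries or without 4 h library 14 or 24 h library 12 or 14. GBP1, an interferon-induced GTPase, rose with 1.93 ± 0.16, and IFI44 of the same list fell with -0.72 ± 0.20 but was not called without 4 h library 13 or 24 h library 12 or 14. In hyaluronan synthesis and binding 3 of 12 rose and 2 fell, HAS2 with 1.72 ± 0.53 and TNFAIP6 with -1.01 ± 0.28. HAS2 was not called without any 1 of 4 h libraries 12, 13 and 14 or 24 h libraries 13 and 14 (adjusted p = 0.071 to 0.216, log2 fold change 1.11 without 24 h library 14), and TNFAIP6 was not called without 24 h library 14 (0.0776). Of the lysosome and autophagy list 2 of 27 rose and 3 fell, with the protease CTSL at 0.72 ± 0.13 and the sialidase NEU1 at -0.47 ± 0.08. NRF2 targets rose in 2 of 22 cases (9.09%) and ER folding genes in 2 of 26 (7.69%), near the 7.85% of all tested genes. Of 13 prostaglandin genes HPGD, which inactivates prostaglandins, fell (-1.44 ± 0.45). It had no call in the fit of the compared libraries or without 4 h library 13 or 14 or 24 h library 14. In control, from 4 h to 24 h, 17 of 38 mitosis genes fell (7.15% of all tested genes did) and 14 of 36 interferon-stimulated genes rose (8.1%). The difference of the time effects was called higher with thrombin in 17 mitosis genes and lower in 0. In the interferon list it was called higher in 3 genes and lower in 13. Of all tested genes 13.6% were called higher and 14.3% lower.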
